A study of Homo sapiens with 12 samples.

Results

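The respiratory chain genes described here were chosen by gene symbol alone, from the names of the subunits of complexes I to IV and of the mitochondrially encoded proteins. The rule matched 80 symbols on 93 of the 20979 rows of the expression table, and the 13 repeat rows, of COX8C, NDUFA3 and NDUFA6, were at 0 in all 12 libraries and were set aside. Of the 80 genes, 13 are encoded by mitochondrial DNA and 67 by nuclear DNA. The mitochondrial genes comprise 7 for complex I, 1 for complex III, 3 for complex IV and 2 for ATP synthase. The nuclear genes comprise 37 for complex I, 4 for complex II, 9 for complex III and 17 for complex IV. NDUFA4 is counted with complex I by its name, although it is known as a subunit of complex IV. CYC1, the cytochrome c1 of complex III, falls outside the name rule. UQCRHL is a near-identical copy of UQCRH, so the division of reads between that pair is uncertain.

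The respiratory chain of the inner mitochondrial membrane passes electrons from NADH and succinate to oxygen and pumps protons, and ATP synthase uses the proton gradient to make ATP. Its subunits come from both genomes: mitochondrial DNA is transcribed as long RNAs from both strands that are cut at tRNAs into separate messages, whereas each nuclear gene has its own promoter. Proximal tubule cells of the kidney rely on this pathway, and renal cancers are known for altered mitochondrial metabolism.

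PolyA RNA was sequenced from 3 established human kidney lines. A704 and CAKI-1 come from renal cancers, whereas HK2 was immortalised from normal proximal tubule cells. Each line was transfected with a PTPN14-1, PTPN14-2, LATS or control siRNA at 25 nM with Lipofectamine RNAiMAX, and RNA was taken at 48 h. The series concerns the Hippo pathway, a growth-restraining kinase cascade in which LATS kinases and the phosphatase PTPN14 hold back the coactivator YAP. The labels name no engineered allele, although HK2 was immortalised, and every library, control libraries included, was transfected. There was 1 library per line and siRNA, which gives 3 libraries per siRNA and 4 per line. Nothing in the labels says that the libraries came from separate cultures, and the p-values therefore reflect only the spread among these libraries, which may be technical. Each line is named with a medium of its own, so line and medium cannot be told apart, and the 4 libraries of a line are not separate isolates of it.

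The low FPKM values fell on whole-read steps that give an estimated 16.95 to 23.31 M reads per library, and 10862 to 11082 rows per library were above FPKM 1. The RNA integrity number was 10 in 11 libraries and 9.6 in the A704 control library. PTPN14 was at 21.4 to 37.5% of its line's control in the PTPN14-1 and PTPN14-2 libraries, and LATS1 at 22.5 to 30.7% in the LATS libraries, where LATS2 was at 98.2 to 122%. PTPN14-1 and PTPN14-2 are named by the sample titles, since the descriptions number them the other way round. The epithelial keratins KRT8 (136.72 to 389.67 FPKM) and KRT18 (71.28 to 321.1 FPKM) and the renal transcription factor PAX8 (19.36 to 85.28 FPKM) were present in every library, while CDH1 (0.04 to 21.41) and EPCAM (0.03 to 32.96) were near 0 in some. The leukocyte gene PTPRC did not exceed 0.04 FPKM, CD3E and HBB were at 0, and the macrophage gene CD68 was at 17.73 to 198.24.

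All 13 mitochondrial genes and 62 of the 67 nuclear genes exceeded FPKM 1 in at least 3 libraries and entered the tests, which ran over 12276 rows. The others were tissue-restricted complex IV isoforms. COX7B2 and COX8C, known from testis, were at 0 and at no more than 0.29 FPKM. COX6B2, also known from testis, reached 0.16 FPKM, COX4I2, known from lung, 0.07 and COX7A1, known from heart and skeletal muscle, 0.83.

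The 13 mitochondrial genes together took 11.6 to 18.6% of all FPKM. Their summed level was 44579.7 (PTPN14-1), 56821 (PTPN14-2), 51808 (LATS) and 59870.45 (control) FPKM in A704. In CAKI-1 the sums were 72121, 67877, 70503.92 and 72539 FPKM in the same order, and in HK2 they were 47450.44, 42115, 47042 and 40140.79 FPKM. Every CAKI-1 library lay above every A704 and HK2 library, whereas the A704 and HK2 ranges overlapped. FPKM is a share of each library, so more mitochondrial RNA and less of other RNA per cell cannot be told apart.

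The 67 nuclear genes together took 0.812 to 1.41% of all FPKM, and their order of lines was another. Their sums were 4846, 5065, 4195.5 and 4703 FPKM in A704 with PTPN14-1, PTPN14-2, LATS and control siRNA. In CAKI-1 they were 4194, 3799.95, 4111 and 4114 FPKM, and in HK2 2936, 2799.55, 2967 and 2999 FPKM. All 4 A704 libraries lay above all 4 CAKI-1 libraries, by a narrow margin for the A704 LATS library, and both lines lay above HK2. The ratio of the mitochondrial to the nuclear sum was 9.20 to 12.7 in A704, 17.2 to 17.9 in CAKI-1 and 13.4 to 16.2 in HK2.

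**Figure D1:**
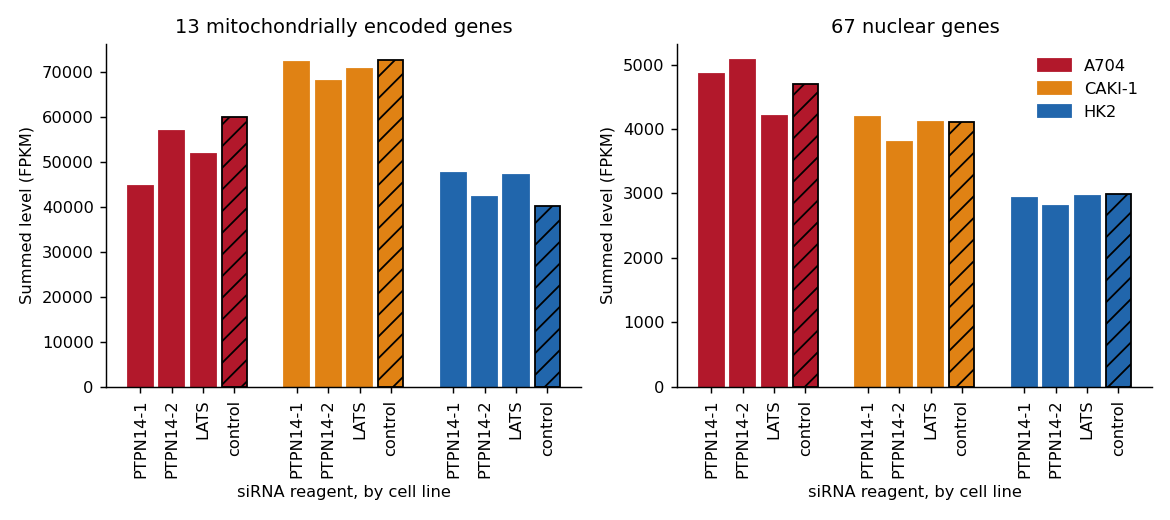
Summed level of the 13 mitochondrially encoded genes (left) and the 67 nuclear genes (right) in FPKM, 1 bar per library, grouped by line with the control library hatched. CAKI-1 stood highest for the mitochondrial sum (67877 to 72539 FPKM) and A704 for the nuclear sum (4195.5 to 5065 FPKM).

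Among the mitochondrial genes MT-CO1, the catalytic core of complex IV, had the highest mean level per length over all libraries (9610.27 FPKM), and MT-ND6, a membrane subunit of complex I, the lowest (1547 FPKM). MT-ND6 is the only one of the 13 written on the minus strand. In 6 of the 13 the annotated gene ends in part of a codon, and addition of the polyA tail is known to complete the stop codon of such messages. The ends of the genes at the extremes of the line differences below, and the stretch that MT-ATP8 and MT-ATP6 share, are shown from GRCh38 with GENCODE v29 annotation. Capitals mark the last bases of the reading frame in the first pair and the start codon of MT-ATP6 in the shared stretch.
MT-ND1, chrM:4248-4262, plus strand: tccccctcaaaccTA
MT-ND6, chrM:14149-14163, minus strand: gctcgggggaatAGG
MT-ATP8 and MT-ATP6, chrM:8527-8572, plus strand: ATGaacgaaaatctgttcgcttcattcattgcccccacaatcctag

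MT-ND1 is cut off within a codon, MT-ND6 ends in a complete AGG, and the shared stretch of 46 bases belongs to both ATP synthase genes. MT-ATP6 also shares 1 base with MT-CO3, and MT-ND4L shares 7 bases with MT-ND4. The annotation lists 394 nuclear pseudogenes named after mitochondrial genes. It also lists pseudogenes named after 33 of the 67 nuclear genes, among them SDHA (3), SDHD (3) and COX6C (17). The authors' treatment of reads from overlapping genes, opposite strands and such copies is not stated in the labels. Exon bases are shared with another gene of the expression table by 18 of the 67 nuclear genes (same strand 4, opposite strand 16, either 18).

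The lines were then compared across the 13 genes, with siRNA as a block, in limma. Against HK2, 9 of 13 mitochondrial genes passed an adjusted p of 0.05 in A704, 6 higher and 3 lower, where 84.6% of all rows passed (40.6% higher, 44.0% lower). After quantile normalization the split was 4 higher and 5 lower. A704 and HK2 differed in opposite directions along the mitochondrial genome. MT-ND1 and MT-ND2, next to the ribosomal RNA genes, were lower in A704, and the run from MT-ND4L to MT-ND6 was higher.

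MT-ND1, a core membrane subunit of complex I, was at 1058 (PTPN14-1), 1089 (PTPN14-2), 1237 (LATS) and 1036 (control) FPKM in A704. It was at 3294.5, 2755, 3616 and 3289 FPKM in CAKI-1 and at 4163, 3428, 3885 and 3561 FPKM in HK2. Each A704 library was far below every other library, and CAKI-1 and HK2 overlapped. The difference between A704 and HK2 was -1.76 (log2(FPKM + 1) scale, SE 0.08, adjusted p = 1.23e-10). Its share of the mitochondrial sum averaged 2.10% in A704 (SD 0.33), 4.57% in CAKI-1 (SD 0.44) and 8.51% in HK2 (SD 0.37, n = 4 libraries each). MT-ND2, another membrane subunit, lay 1.06 lower on the log2 scale in A704 than in HK2 (log2 difference -1.06, SE 0.08, adjusted p = 4.21e-08).

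MT-ND6 was at 1823, 2357, 1997 and 2431 FPKM in A704 with PTPN14-1, PTPN14-2, LATS and control siRNA. It was at 1744, 1681, 1784 and 1656 FPKM in CAKI-1 and at 908, 763, 877 and 544.5 FPKM in HK2. No HK2 library reached any of the A704 or CAKI-1 libraries, and the HK2 control library was the lowest of all. MT-ND6 was higher in A704 than in HK2 by 1.49 (SE 0.14, adjusted p = 3.69e-07) and in CAKI-1 than in HK2 by 1.18 (SE 0.14, adjusted p = 4.61e-06). Its share of the mitochondrial sum was 4.04% in A704 (SD 0.13), 2.43% in CAKI-1 (SD 0.11) and 1.74% in HK2 (SD 0.26). On the genome MT-ND6 (14149 to 14673, minus strand) adjoins MT-ND5 (12337 to 14148, plus strand). How reads from opposite strands were assigned there is not stated, and the part of this in the MT-ND6 level was not tested.

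The other complex I genes of this run were also higher in A704 than in HK2. MT-ND5 differed by 1.08 (SE 0.11), MT-ND4 by 0.87 (SE 0.10) and MT-ND4L by 0.74 (SE 0.11), with adjusted p of 6.59e-07, 2.29e-06 and 2.00e-05. MT-ND4 was at 5892 to 8105 FPKM in A704, 6879 to 7595 FPKM in CAKI-1 and 3716 to 4274 FPKM in HK2, so that only HK2 stood apart. MT-ND3 was lower in A704 than in HK2 (log2 difference -0.51, SE 0.12, adjusted p = 0.00169).

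Of the 3 mitochondrial complex IV genes, which form its catalytic core, MT-CO2 was higher in A704 than in HK2 by 0.68 (SE 0.09, adjusted p = 1.07e-05) and MT-CO1 by 0.26 (SE 0.10, adjusted p = 0.0317), which quantile normalization turned to -0.12. The MT-CO1 call was lost when the PTPN14-2 or control library of A704, or the PTPN14-2 or control library of HK2, was left out, with an adjusted p of up to 0.165. MT-CO3 was at 4392, 5779, 4814 and 6126 FPKM in A704, 10865, 9580.44, 9981 and 10470.53 FPKM in CAKI-1, and 5267, 4541, 5275 and 4402 FPKM in HK2. CAKI-1 stood well above both other lines, whose ranges overlapped, and the A704 to HK2 difference of 0.11 (SE 0.11) did not pass. MT-CYB, the cytochrome b of complex III (log2 difference -0.06), did not pass either. Nor did MT-ATP6 (-0.29) and MT-ATP8 (0.14), both membrane subunits of ATP synthase.

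In CAKI-1, 12 of 13 genes passed against HK2, where 81.7% of all rows did (40.4% higher, 41.3% lower). Of these, 11 were higher (8 higher and 3 lower after quantile normalization, where MT-CO1 and MT-ND4 were at 0.00 and MT-CO2 at -0.20), with differences between 0.55 for MT-ND3 and 1.18 for MT-ND6, and all 11 had no overlap between the 4 CAKI-1 and 4 HK2 libraries (34.8% of all rows lay above in this way). MT-CO3 was higher by 1.07 (SE 0.11, adjusted p = 1.04e-06). MT-ND1 was lower, with a log2 difference of -0.22 (SE 0.08, adjusted p = 0.0211), and this call was lost when the PTPN14-1 or PTPN14-2 library of either line was left out, with an adjusted p of up to 0.107. The MT-ND1 call was also lost without siRNA as a term. MT-ND2 had a difference of -0.15 that did not pass.

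Set against CAKI-1, A704 had 8 of 13 mitochondrial genes lower and 0 higher, where 81.1% of all rows passed (39.3% higher, 41.8% lower). The split was 5 higher and 6 lower after quantile normalization and 2 higher and 8 lower after rescaling to the non-mitochondrial sum. The largest of these differences were MT-ND1 (-1.55, SE 0.08), MT-ND3 (-1.06, SE 0.12), MT-ATP6 (-0.98, SE 0.14) and MT-CO3 (-0.97, SE 0.11). MT-CO2, MT-ND4L, MT-ND4, MT-ND5 and MT-ND6 differed by -0.07 to 0.32 and did not pass. The 3 line comparisons share libraries pairwise and are not independent of one another.

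**Figure D2:**
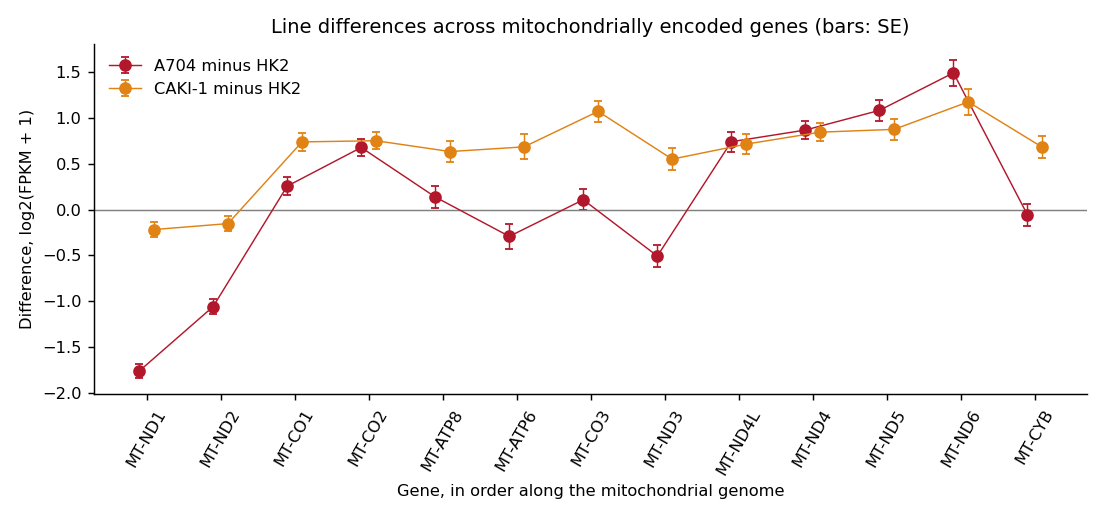
Difference of A704 and of CAKI-1 from HK2 on the log2(FPKM + 1) scale for the 13 mitochondrial genes in genome order, with standard errors from limma. A704 runs from -1.76 at MT-ND1 to 1.49 at MT-ND6, while 11 of 13 CAKI-1 points lie between 0.55 and 1.18.

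The ratio of MT-ATP8 to MT-ATP6, which share 1 message, was 1.12 to 1.28 in A704, against 0.778 to 0.906 in CAKI-1 and 0.804 to 0.938 in HK2. A704 did not overlap the other lines. The other pair on 1 message, MT-ND4L over MT-ND4, had overlapping ratios of 0.804 to 0.843 in A704, 0.764 to 0.892 in CAKI-1 and 0.803 to 0.959 in HK2.

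**Figure D3:**
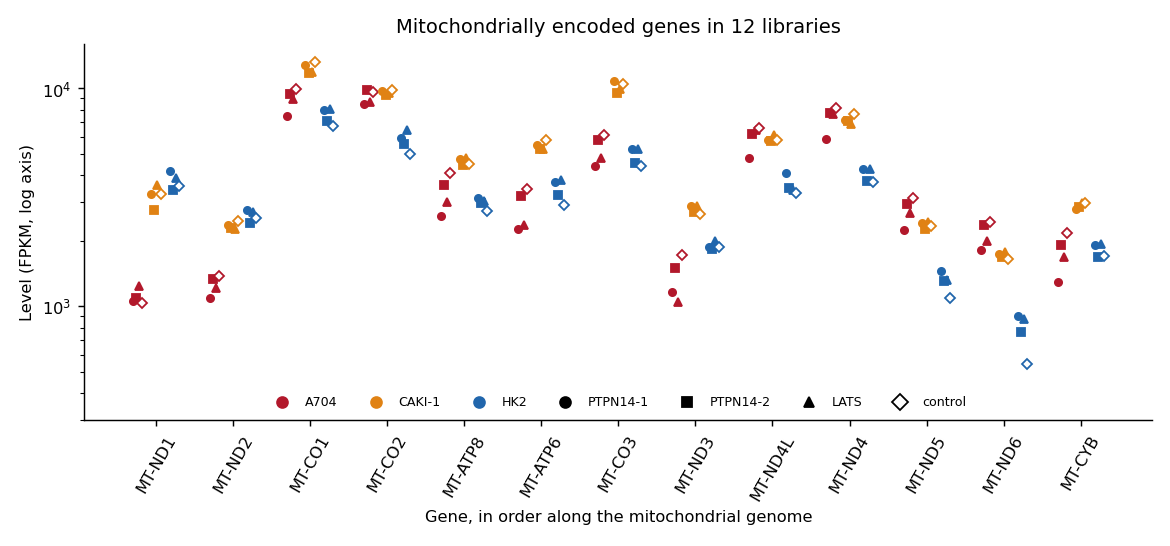
Level of each mitochondrial gene in FPKM (log axis) in genome order, 1 point per library, with colour for the line and shape for the siRNA. A704 lies lowest at MT-ND1 (1036 to 1237 FPKM) and highest at MT-ND6 (1823 to 2431 FPKM), and HK2 lies lowest from MT-ND4L to MT-ND6.

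The nuclear genes were lower per length than the mitochondrial ones. Mean levels over the 12 libraries ran from 4.98 FPKM for NDUFV3 to 248 FPKM for NDUFS5 in complex I, from 10.3 FPKM for SDHC to 86.5 FPKM for SDHB in complex II, from 6.27 FPKM for UQCRHL to 292 FPKM for UQCRH in complex III, and from 0.892 FPKM for COX6A2 to 296 FPKM for COX7C among the tested genes of complex IV. NDUFS5 is an accessory subunit on the intermembrane side, UQCRH the hinge protein next to cytochrome c1, and COX7C a small membrane subunit.

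In A704, 52 of 62 nuclear genes passed against HK2, close to the 84.6% of all rows, and 47 of them were higher and 5 lower. All rows split 40.6% higher to 44.0% lower. The median difference was 0.55 over the 62 genes and -0.04 over all 12276 rows. All 4 A704 libraries lay above all 4 HK2 libraries for 43 of the 62 genes (36.4% of all rows) and below them for 3 (39.6% of all rows). In CAKI-1, 39 genes were higher and 9 lower than in HK2, with a median of 0.32 against -0.01 over all rows. The share called was 77.4% of the 62 genes, against 81.7% of all rows (40.4% higher, 41.3% lower). The CAKI-1 libraries lay above all HK2 libraries for 31 genes (34.8% of all rows) and below for 7 (35.0%). Between A704 and CAKI-1, 30 were higher in A704 and 19 lower, with a median of 0.16 against -0.03. Here 79% of the 62 genes were called, against 81.1% of all rows (39.3% higher, 41.8% lower). After rescaling to the non-mitochondrial sum 33 were higher and 13 lower. A704 lay wholly above CAKI-1 for 26 (33.4% of all rows) and wholly below for 15 (35.4%). By line mean, A704 was highest for 36 of the 62 genes, CAKI-1 for 23 and HK2 for 3. The counts by complex below are to be read beside these shares of all rows.

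**Figure D4:**
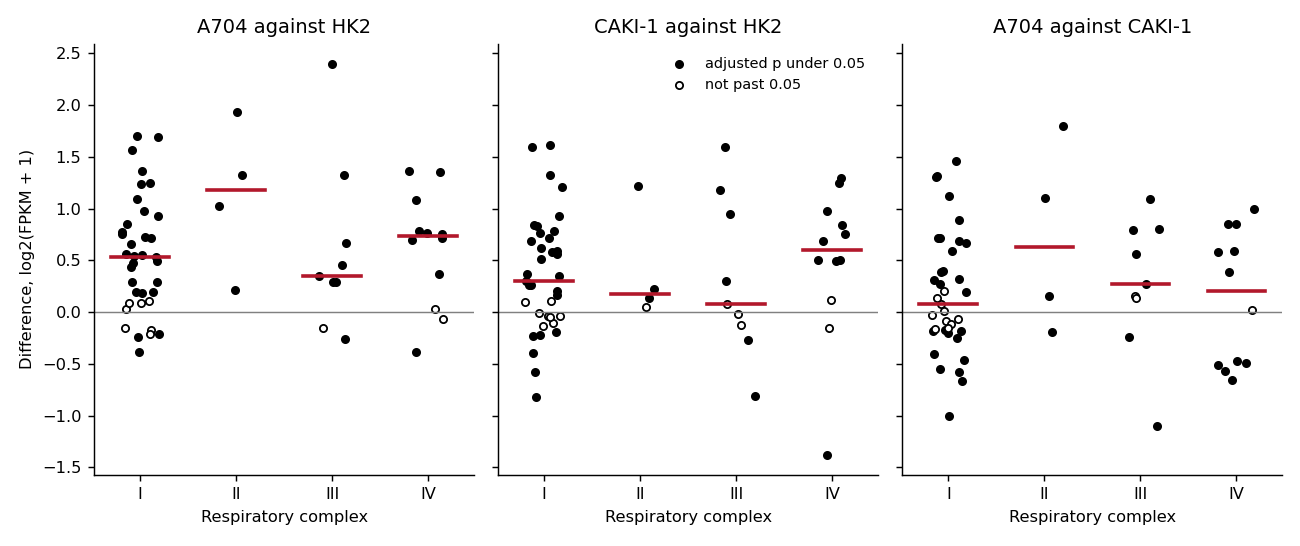
Difference between lines on the log2(FPKM + 1) scale for the 62 tested nuclear genes by complex, 1 point per gene, filled where the adjusted p is under 0.05, with the complex's median as a bar. Complex II has the highest median against HK2 in A704 (1.18) and 0.18 in CAKI-1. The COX6A2 points that involve CAKI-1, where it is listed at 0, are fitted values that depend on the pseudocount.

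In complex I, 27 of 37 nuclear genes were higher in A704 than in HK2 and 3 lower. NDUFC1, a small accessory membrane subunit, was at 42.6, 52.6, 37.6 and 49.6 FPKM in A704 with PTPN14-1, PTPN14-2, LATS and control siRNA, against 11.8, 14.3, 12.9 and 14.5 FPKM in HK2. All A704 libraries were far above all HK2 libraries, a 3.22-fold difference (log2 1.69, SE 0.08, adjusted p = 1.29e-10). NDUFC1 shares 360 exon bases with MGARP on the same strand, so reads there may belong to either. The accessory subunits NDUFA2 (1.70) and NDUFB10 (1.56) were also higher. NDUFB8 (-0.38), NDUFB11 (-0.24) and NDUFB9 (-0.21) were lower. The NDUFB11 call was lost without the LATS or control library of A704 or the HK2 control library (adjusted p up to 0.0816), and that of NDUFB9 without the A704 LATS library (adjusted p = 0.0587).

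CAKI-1 had 23 of the 37 complex I genes higher and 6 lower than HK2. NDUFS4, an accessory subunit whose loss causes Leigh syndrome, was at 89.2, 85.3, 72.6 and 79.1 FPKM in CAKI-1 with PTPN14-1, PTPN14-2, LATS and control siRNA, against 29.5, 24.2, 27.3 and 24.2 FPKM in HK2. The groups were well separated, 3.03-fold apart (log2 1.60, SE 0.08, adjusted p = 3.13e-10). NDUFA2 (1.62) and NDUFA1 (1.32) were also higher. NDUFA12 (-0.82), NDUFS7 (-0.58), a core subunit that carries an iron-sulphur cluster, and NDUFB7 (-0.40) were lower in CAKI-1. Against CAKI-1, A704 had 16 of these genes higher, led by NDUFB10 (1.46), NDUFA12 (1.31) and NDUFC1 (1.12), and 11 lower, led by NDUFB6 (-1.00), NDUFS4 (-0.67) and NDUFB9 (-0.58).

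All 4 complex II genes were higher in A704 than in HK2. SDHA, the flavoprotein that oxidises succinate, was at 145, 166, 164 and 155 FPKM in A704 with PTPN14-1, PTPN14-2, LATS and control siRNA. It was at 42.6, 43.5, 47.7 and 43.6 FPKM in CAKI-1 and at 38.5, 40.3, 43.0 and 39.7 FPKM in HK2. A704 stood apart from both other lines, 3.82-fold above HK2 (log2 1.93, SE 0.06, adjusted p = 2.66e-12) and 3.49-fold above CAKI-1 (log2 1.80, SE 0.06, adjusted p = 7.11e-12). SDHB, the iron-sulphur subunit, was nearly level, at 89.7 to 103 FPKM in A704, 81.3 to 87.3 FPKM in CAKI-1 and 78.75 to 82.95 FPKM in HK2, with a difference of 0.21 between A704 and HK2.

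The membrane anchors of complex II, which pass electrons to ubiquinone, followed different orders. SDHC was at 10.7 to 13.2 FPKM in A704, 13.4 to 14.1 FPKM in CAKI-1 and 4.82 to 5.84 FPKM in HK2, and both cancer lines were higher than HK2, A704 by 1.03 and CAKI-1 by 1.22. SDHD was higher in A704 than in HK2 by 1.32 (SE 0.10) and than in CAKI-1 by 1.10 (SE 0.10). The small differences within complex II depended on the setting. CAKI-1 passed against HK2 for SDHD (0.22, adjusted p = 0.0456) and SDHA (0.13, adjusted p = 0.0493), and leaving out any CAKI-1 library, or the PTPN14-2 or control library of HK2, ended both calls. Without the LATS or control library of A704 both were also lost, and without the A704 PTPN14-2 or the HK2 PTPN14-1 or LATS library that of SDHA was. Both calls were also lost after quantile, upper-quartile or non-mitochondrial scaling, without trend and robust moderation and without siRNA as a term, and that of SDHD without the low-value filter. In all, SDHD lost its call in 14 of 20 settings (adjusted p up to 0.255) and SDHA in 16 of 20 (adjusted p up to 0.219). Between A704 and CAKI-1, SDHB (0.16, adjusted p = 0.0343) lost its call without the PTPN14-2 or control library of A704 or the PTPN14-1, PTPN14-2 or control library of CAKI-1. SDHC (-0.19, adjusted p = 0.0299) lost it without the LATS or control library of A704 or the PTPN14-1 or LATS library of CAKI-1, and after upper-quartile or non-mitochondrial scaling.

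In complex III the largest difference was that of UQCRC2, a core protein of the matrix arm. It was at 136, 175, 123 and 135 FPKM in A704 with PTPN14-1, PTPN14-2, LATS and control siRNA, at 86.8, 82.0, 74.8 and 77.8 FPKM in CAKI-1, and at 29.5, 25.7, 25.0 and 23.5 FPKM in HK2. The 3 lines did not overlap. UQCRC2 was 5.28-fold higher in A704 than in HK2 (log2 2.4005, SE 0.08, adjusted p = 1.20e-11) and 3.03-fold higher in CAKI-1 than in HK2 (log2 1.60, SE 0.08, adjusted p = 9.86e-10). UQCRC1, its partner core protein, was lower in A704 than in HK2 (-0.26, adjusted p = 0.0121) and than in CAKI-1 (-0.24, adjusted p = 0.0174). Both calls were lost without the A704 LATS library, and the second also without the A704 control library or the PTPN14-1 or LATS library of CAKI-1, with an adjusted p of up to 0.0826.

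UQCRFS1, the Rieske iron-sulphur protein that carries electrons within complex III, ran another way. It was at 23.5 to 33.1 FPKM in A704, 12.1 to 13.9 FPKM in CAKI-1 and 21.9 to 24.9 FPKM in HK2, and was lower in CAKI-1 than in HK2 (-0.81, SE 0.09, adjusted p = 1.28e-06). UQCRB, a ubiquinone-binding subunit, was at 18.8 to 25.5 FPKM in A704, 40.3 to 55.8 FPKM in CAKI-1 and 24.1 to 27.6 FPKM in HK2. CAKI-1 was higher than HK2 by 0.95, and A704 was lower than CAKI-1 (-1.10). The small subunit UQCRQ was higher than in HK2 in A704 (1.32) and in CAKI-1 (1.18). UQCR10 was higher in A704 than in HK2 (0.66) and than in CAKI-1 (0.79), and UQCR11 was lower in CAKI-1 than in HK2 (-0.27).

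In complex IV, 9 of the 12 tested nuclear genes were higher and 1 lower than in HK2, in A704 and in CAKI-1 alike, the lower one being COX6A2. COX6A1, the widely expressed isoform of a regulatory subunit, was at 456, 442, 355 and 386 FPKM in A704 with PTPN14-1, PTPN14-2, LATS and control siRNA, against 172, 151, 161 and 153 FPKM in HK2. The groups were far apart (log2 1.35, SE 0.10, adjusted p = 1.78e-08). COX8A (1.36) and COX7B (0.77), both small membrane subunits, were also higher in A704. COX7C (1.30), COX6C (1.25) and COX7B (0.75) were the clearest in CAKI-1.

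COX4I1, the main isoform of a subunit that regulates the complex, was lower in A704 (96.1 to 122 FPKM) than in CAKI-1 (172 to 181 FPKM), as were COX7A2L, known for its part in supercomplexes (-0.57), and COX7C (-0.51). COX6B1 (0.85) and COX6A1 (0.85) were higher in A704 than in CAKI-1. COX6A2, the heart and muscle isoform, was at 1.10, 0.60, 0.96 and 1.39 FPKM in A704 with PTPN14-1, PTPN14-2, LATS and control siRNA, and at 1.61, 0.87, 2.27 and 1.90 FPKM in HK2. It was listed at 0 in all 4 CAKI-1 libraries, so no fold is given against that line. The A704 and HK2 ranges overlapped, and the fitted difference of -0.39 passed (adjusted p = 0.00602). In the PTPN14-2 library COX6A2 was the lowest of its line in both.

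The siRNA comparisons left the respiratory chain nearly without calls. With cell line as a block, 0 of 13 mitochondrial and 0 of 62 nuclear genes passed for PTPN14-1 against control, where 5.87% of all rows passed (2.39% higher, 3.47% lower). At an unadjusted p under 0.05 there were 0 mitochondrial and 3 nuclear genes, against 2801 rows in all. For LATS against control the counts were also 0 and 0 (0.122% of all rows), with 0 mitochondrial and 5 nuclear genes at an unadjusted p under 0.05, among 1381 rows. With both PTPN14 siRNAs pooled against control they were again 0 and 0 (0.0244% of all rows), with 0 and 2 genes at an unadjusted p under 0.05, among 1250 rows.

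For PTPN14-2 against control, 0 mitochondrial genes and 1 nuclear gene, SDHD, passed, where 1.35% of all rows did. For PTPN14-1 against PTPN14-2 the gene that passed was again SDHD, where 11.7% of all rows did (5.52% higher, 6.18% lower). SDHD anchors complex II in the membrane, and its inherited loss is known from paraganglioma. The SDHD promoter is shown because it is the only member called after siRNA, beside those of SDHA and UQCRC2, the members with the smallest adjusted p between A704 and HK2. RefSeq promoter sequences (GRCh38.p14, 250 bases before to 50 after the start) were matched for 55 of the 67 nuclear genes. Capitals mark CGCANGCGC, letters of the site of the activator NRF1, and CCGGAAGT, a site of ETS factors such as GABPA. Both were read on either strand, so that overlapping matches on both strands form 1 stretch.
SDHD, chr11:112086623-112086922, plus strand: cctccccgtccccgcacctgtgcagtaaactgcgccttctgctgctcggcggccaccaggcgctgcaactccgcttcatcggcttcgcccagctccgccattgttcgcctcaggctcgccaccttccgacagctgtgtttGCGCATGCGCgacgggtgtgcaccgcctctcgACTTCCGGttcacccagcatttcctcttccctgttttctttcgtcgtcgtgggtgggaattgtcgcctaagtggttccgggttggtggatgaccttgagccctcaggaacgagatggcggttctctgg
SDHA, chr5:218070-218369, plus strand: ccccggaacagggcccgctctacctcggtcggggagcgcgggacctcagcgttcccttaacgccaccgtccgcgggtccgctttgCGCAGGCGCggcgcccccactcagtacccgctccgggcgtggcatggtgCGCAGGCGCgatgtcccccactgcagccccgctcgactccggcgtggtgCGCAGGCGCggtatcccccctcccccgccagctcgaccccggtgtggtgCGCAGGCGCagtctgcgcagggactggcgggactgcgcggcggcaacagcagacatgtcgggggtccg
UQCRC2, chr16:21953111-21953410, plus strand: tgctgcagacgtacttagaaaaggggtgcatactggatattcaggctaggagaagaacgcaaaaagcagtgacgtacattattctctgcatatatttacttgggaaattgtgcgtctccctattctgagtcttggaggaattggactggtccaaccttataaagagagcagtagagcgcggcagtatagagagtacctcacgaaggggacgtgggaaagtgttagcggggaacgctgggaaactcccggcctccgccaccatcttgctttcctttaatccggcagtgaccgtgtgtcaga

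The SDHD window holds 1 NRF1 and 1 ETS stretch, the SDHA window 4 NRF1 stretches, and the UQCRC2 window none of these letters. Over the 55 matched nuclear genes, 17 (30.9%) held the NRF1 letters, against 7.47% of all 35116 promoters in the table. The ETS letters stood in 8 (14.5%, against 4.14% of all), and AAGATGGCG, letters of the YY1 site, in 7 (12.7%, against 1.75%). Any of the 3 was found in 26 (47.3%, against 12.2%). The nuclear genes were counted with 1 promoter per symbol. The 35116 promoters were not cut to 1 per symbol or to expressed genes, so the shares cover unlike sets. No motif contains another. The NRF1 and ETS letters occurred together in SDHD and UQCR11. A match describes these letters and is not evidence of binding.

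SDHD was at 62.60 (PTPN14-1), 53.25 (PTPN14-2), 54.39 (LATS) and 64.53 (control) FPKM in A704. The CAKI-1 libraries had 31.41, 20.95, 25.63 and 30.22 FPKM, and those of HK2 28.16, 14.80, 25.09 and 25.54 FPKM. In each line the PTPN14-2 library was the lowest of the 4, and in A704 the LATS library was nearly as low. As a percentage of the control library of the same line, SDHD was at 82.5% with PTPN14-2 in A704, at 69.3% in CAKI-1 and at 57.9% in HK2. The PTPN14-1 level was 97.0, 104 and 110% of control in the same order. The fitted change was -0.51 for PTPN14-2 against control (SE 0.11, adjusted p = 0.0417) and 0.56 for PTPN14-1 against PTPN14-2 (SE 0.11, adjusted p = 0.00684), in limma with 3 libraries each.

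The call against control was not stable. It was lost when the LATS or control library of A704, the PTPN14-1, PTPN14-2 or control library of CAKI-1, or the PTPN14-2 or control library of HK2 was left out, or all CAKI-1 or all HK2 libraries. The log2 change then lay between -0.52 and -0.35, and the adjusted p reached 0.335. It was also lost without the low-value filter, without trend and robust moderation, and without the line block, where the adjusted p was 1.0. The difference between the PTPN14 siRNAs was lost without all HK2 (adjusted p = 0.0778) or all CAKI-1 libraries (adjusted p = 0.0721) and without the line block (adjusted p = 0.9999), and it passed in the other 20 settings. SDHD shares 319 exon bases with the protein-coding gene AP002884.3 on the same strand and 26 with TIMM8B on the opposite strand. Reads there may belong to either, and AP002884.3 has no row in the expression table.

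**Figure D5:**
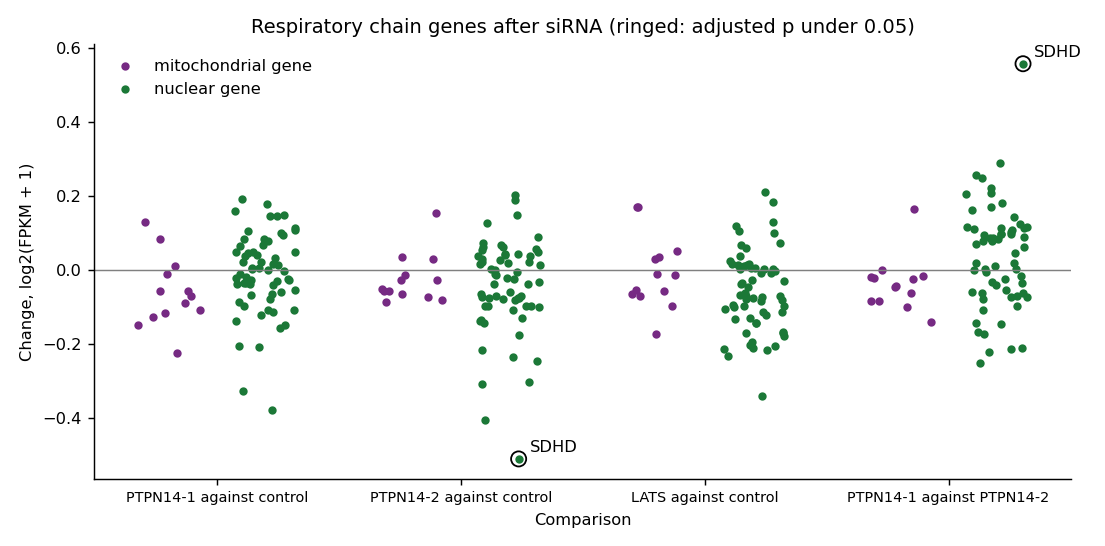
Fitted change on the log2(FPKM + 1) scale of each mitochondrial and nuclear respiratory chain gene in 4 siRNA comparisons, 1 point per gene. Only SDHD is ringed as past an adjusted p of 0.05, at -0.51 for PTPN14-2 against control and 0.56 for PTPN14-1 against PTPN14-2.

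The fitted mitochondrial changes were small. They lay between -0.22 (MT-CYB) and 0.13 (MT-ND6) for PTPN14-1, between -0.08 and 0.15 for PTPN14-2 and between -0.17 (MT-ND3) and 0.17 (MT-ND1) for LATS siRNA, each against control. The lines differed beneath these means. In A704, 12 of 13 mitochondrial genes were below the control library with PTPN14-1, 11 with PTPN14-2 and 12 with LATS siRNA. In HK2, 12 of 13 were above it with PTPN14-1, 9 with PTPN14-2 and 13 with LATS siRNA. In CAKI-1, 7 of 13 were below it with PTPN14-1, 11 with PTPN14-2 and 6 with LATS siRNA, with medians of 99.7, 94.9 and 100.5% of control. Genes of 1 library share its total, so such counts are not independent, and each line has a single control library. The test of a difference between lines in the PTPN14 effect had 3 residual degrees of freedom and called 0 of the 75 tested members (0.0% of all rows), with 0 members and 106 rows at an unadjusted p under 0.05.

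Among the nuclear genes the median change was 0.00 for PTPN14-1, -0.03 for PTPN14-2 and -0.07 for LATS siRNA, against 0.00 for all rows in each. With LATS siRNA 41 of the 62 estimates were below 0 and 21 above it, where 6012 of all 12276 rows were above 0. In A704 54 of 62 nuclear genes were below the control library with LATS siRNA, with a median of 90.2% of control, against 32 in CAKI-1 and 33 in HK2. For these counts against a single control library, and those of the mitochondrial genes above, the share of all rows was not computed. Without the A704 LATS library the median change of the 62 genes was 0.01. That library also had the highest number of rows above FPKM 1 (11082), and the part of this in the result was not tested.

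Genes that build or supply the chain were read from lists of assembly factors, ATP synthase subunits, carriers, the TCA cycle and regulators. With PTPN14-1 against control, 1 of 17 complex I assembly factors, 1 of 25 complex IV assembly factors, 1 of 7 electron carriers and 1 of 12 regulators of mitochondrial biogenesis fell, and 0 genes of these lists rose. The 4 are 2.94% of the 136 list genes tested, against 5.87% of all rows passing and 3.47% falling, so the share called in the lists was not above that of the table. No gene passed among 17 nuclear ATP synthase subunits, 10 assembly factors of complexes II and III, 34 genes of mitochondrial DNA transcription and RNA handling or 14 of the TCA cycle. ECSIT, an assembly factor of complex I, was at 7.20, 2.50 and 5.71 FPKM with PTPN14-1 in A704, CAKI-1 and HK2, against 11.4, 3.76 and 8.79 FPKM in the control libraries. It was lower with PTPN14-1 in each line, with a fitted change of -0.53 (SE 0.09, adjusted p = 0.00557).

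TACO1, a translational activator of MT-CO1, was at 11.96, 16.7 and 10.1 FPKM with PTPN14-1 in A704, CAKI-1 and HK2, against 14.7, 24.9 and 17.7 FPKM with control siRNA. The fitted change was -0.53 (SE 0.09, adjusted p = 0.00647), while that of MT-CO1 RNA was -0.07 and did not pass. ETFB, a subunit of the flavoprotein that feeds electrons from fatty acid oxidation to ubiquinone (-0.60, adjusted p = 0.0140), and GABPB2, a partner of the ETS factor GABPA (-0.36, adjusted p = 0.0254), also fell. GABPB2 lay near the filter of FPKM 1. With PTPN14-1 it was at 0.74, 0.90 and 0.64 FPKM in the same order of lines, against 1.16, 1.32 and 1.27 FPKM with control siRNA. The ECSIT and TACO1 calls were lost when all libraries of HK2 or of CAKI-1 were left out. Those of ETFB and GABPB2 were also lost without the control library of CAKI-1, or the PTPN14-1 or control library of HK2, and that of GABPB2 without the PTPN14-1 library of CAKI-1, the control library of A704 or all A704 libraries.

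With PTPN14-2, LATS siRNA and both PTPN14 siRNAs pooled, 0 genes of these lists passed against control. Between the PTPN14 siRNAs, 13 list genes passed, 4 higher with PTPN14-1 and 9 lower, and all 13 calls were lost in at least 1 alternative setting. These are 9.56% of the 136 list genes tested, below the 11.7% of all rows, and 5.52% of all rows were higher and 6.18% lower. ECSIT (-0.62), TACO1 (-0.58), ETFB (-0.57) and GABPB2 (-0.44) were lower with PTPN14-1 than with PTPN14-2. So were MTERF2 of the mitochondrial transcription termination family (-0.44), the ATP synthase stalk subunit ATP5F1 (-0.30), the copper-delivery factor COX11 (-0.31) and the TCA cycle genes SUCLG1 (-0.39) and SUCLG2 (-0.31), while MYC (0.39) was higher. NUBPL, which delivers iron-sulphur clusters to complex I, was at 4.42, 5.10 and 5.45 FPKM with PTPN14-1 in A704, CAKI-1 and HK2, against 4.10, 2.01 and 1.56 FPKM with PTPN14-2. The control libraries had 5.64, 3.84 and 5.33 FPKM in the same order. NUBPL was thus below control with PTPN14-2 in every line, and with PTPN14-1 in A704. It was higher with PTPN14-1 than with PTPN14-2 in each line, by little in A704, with a fitted difference of 0.81 (SE 0.19, adjusted p = 0.0168). The call was lost without the PTPN14-1 or the PTPN14-2 library of CAKI-1 or of HK2, with a difference of 0.55 to 1.18 over all settings.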

How the data were processed

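The authors deposited FPKM values per gene symbol in 1 table of 12 columns, rounded to 2 decimals. The unit was read from the values, which are not whole and scale with gene length at their lowest steps. The aligner was STAR 2.4.0g1 and the build GRCh38.p1, as named in the submitters' processing notes, and the kit is a stranded one per the labels. No source used here gives the counter, its annotation or its strand setting. There were 0 further per-sample columns.

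Values were tested as log2(FPKM + 1), a scale that understates the changes of low genes, on rows above FPKM 1 in at least 3 libraries. Models were fitted with limma 3.58.1 (statmod 1.5.0, R 4.3.3) using a trended prior variance and robust moderation, and Benjamini-Hochberg adjustment ran over all 12276 rows at 0.05. The reagent model had siRNA and line as terms (6 residual degrees of freedom). The pooled PTPN14 model had 7 and the line-by-target model 3. The code was tested on simulated data. The line served as the replicate block, since libraries with the same number come from the same cell line, and their deviations from the siRNA means correlated at 0.958 to 0.983.

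Members, lists and tests were chosen with earlier results of these data known. Named genes are all mitochondrial members, nuclear members past the threshold between siRNAs, the 3 smallest p in each direction per complex between lines, the highest and lowest mean FPKM per complex, members not tested and up to 2 genes per list with the smallest p between siRNAs. Examples were given in full after their values were seen. Genes were placed with GENCODE v29 (GRCh38). Alternatives were another pseudocount (0.1), filter (no filter, FPKM 5), quantile, upper-quartile or non-mitochondrial scaling, no trend, no line block, and leaving out libraries or lines. Depth was estimated from whole-read steps on single-exon genes, where 73.1 to 93.8% of values lay on the best step, and it limits genes near FPKM 1 more than the members.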

Additional observations from a re-analysis of the deposited data

Results flagged for a closer look

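The summed level of the 13 mitochondrial genes moved in opposite directions from control in A704 and HK2. In A704 it was at 74.5% of the control library with PTPN14-1, 94.9% with PTPN14-2 and 86.5% with LATS siRNA. In HK2 it was at 118% with PTPN14-1, 105% with PTPN14-2 and 117% with LATS siRNA. In CAKI-1 it was at 99.4%, 93.6% and 97.2% in the same order. All 3 siRNAs of a line are set against the same control library, and the difference between lines in these sums was not tested. The A704 control library had an RNA integrity number of 9.6 and the others 10, and its part in the result was not tested.

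MT-ND4L in CAKI-1 stood at 6138 FPKM with LATS siRNA, apart from the next library at 5799.71 FPKM, the control. The gap was 0.849 of the range of the 4 CAKI-1 libraries. It was 1 of 69 groups of 4 libraries examined in this way, and chance sets about 5% of groups apart.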

How the results depend on the processing

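For LATS siRNA, the pooled PTPN14 siRNAs, the PTPN14 effect by line and the mitochondrial genes in every siRNA comparison, 0 members passed under all alternatives run. With PTPN14-1 against control, 1 nuclear gene passed after rescaling to the non-mitochondrial sum (NDUFS7, -0.44). With PTPN14-2, 0 passed without the low-value filter, without trend and robust moderation, and without the line block. Without the block, that is without pairing libraries by line, 0 nuclear genes also passed between the PTPN14 siRNAs, and the SDHD adjusted p was 1.0 against control. The list genes lost their calls without it too. Leaving out 1 library or line gave 0 to 1 nuclear genes for each PTPN14 siRNA against control and 0 to 2 between them.

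In A704 against HK2, leaving out 1 library gave 8 to 10 mitochondrial and 49 to 52 nuclear calls. CAKI-1 against HK2 gave 11 to 12 and 42 to 48, and A704 against CAKI-1 gave 8 to 10 and 42 to 48. Of the member calls, 52 of 61, 47 of 60 and 44 of 57 held under every alternative. Quantile normalization turned A704 against HK2 for MT-CO1 (-0.12) and MT-CO3 (-0.55), CAKI-1 against HK2 for MT-CO2 (-0.20), and A704 against CAKI-1 for MT-CO2 (0.32). It put MT-CO1 and MT-ND4 at 0.00 in CAKI-1 against HK2, so that both lost their calls. It forces the highest rows of all libraries onto the same values, and the mitochondrial median became -0.08, 0.20 and -0.13, against 0.14, 0.72 and -0.50. Under it 35 nuclear genes were higher and 12 lower in CAKI-1 than in HK2.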

Other observations

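Subunits outside the name rule and supply genes also differed between lines. NDUFA4L2, a relative of NDUFA4 known as a hypoxia-induced gene in clear cell renal cancer, was at 483 to 608 FPKM in the 4 A704 libraries, against 0.39 to 0.97 FPKM in CAKI-1 and 0.07 to 0.32 FPKM in HK2. NDUFAB1, the acyl carrier protein of complex I, was at 121 to 144 FPKM in A704, 60 to 63.3 FPKM in CAKI-1 and 22.5 to 30.97 FPKM in HK2. CYC1 was highest in CAKI-1 (90.51 to 124.84 FPKM), against 70.28 to 82.38 FPKM in A704 and 53.54 to 61.17 FPKM in HK2. These genes were singled out after their values were seen.

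Of 17 nuclear ATP synthase subunits, 13 were higher and 2 lower in A704 than in HK2 (median 0.70), and 11 were higher and 0 lower in CAKI-1 than in HK2 (median 0.35). Of 14 TCA cycle genes, 11 were higher and 2 lower in A704 (median 0.68), and 8 higher and 4 lower in CAKI-1 (median 0.42). Of 34 genes of mitochondrial DNA transcription and RNA handling, 7 were higher and 24 lower in A704 than in HK2 (median -0.52), and 7 higher and 19 lower in CAKI-1 (median -0.19). All rows had medians of -0.04 in A704 and -0.01 in CAKI-1. Of all rows, 40.6% were higher and 44.0% lower in A704 than in HK2, and 40.4% were higher and 41.3% lower in CAKI-1. The 136 genes of all 8 lists together were near these shares, with 59 higher and 56 lower in A704 (84.6% called, as over all rows) and 61 higher and 47 lower in CAKI-1 (79.4% called, against 81.7% of all rows). The assembly factors of complex I were 7 higher and 7 lower of 17 in A704, and 8 higher and 5 lower in CAKI-1. Those of complexes II and III were 5 higher and 4 lower of 10 in A704, and 2 higher and 6 lower in CAKI-1. Those of complex IV were 10 higher and 8 lower of 25 in A704, and 16 higher and 7 lower in CAKI-1. Of 12 regulators of mitochondrial biogenesis, 2 were higher and 7 lower in A704, and 5 higher and 6 lower in CAKI-1. Of 7 electron carriers, 4 were higher and 2 lower in A704, and 4 higher and 0 lower in CAKI-1.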
